A study of Mus musculus with 12 samples.

Results

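CD8 T cells that had left a melanoma within a day were compared, across all genes, with CD8 T cells that had stayed in it. The comparison used 8 of the 12 RNA sequencing libraries of the series, 4 of egressed and 4 of tumor-retained cells. Every library was made from CD44+ CD8+ T cells of Kaede-transgenic mice bearing YUMMER1.7, a mouse melanoma line. Kaede is a fluorescent protein that violet light turns from green to red. Tumors were lit on day 11 and mice were sampled on day 12. Egressed cells were red cells sorted from the lymph node that drains the tumor, and tumor-retained cells were the red cells of the tumor itself. The remaining 4 libraries, of CD44+ CD8+ T cells from the spleen, entered the model for its estimate of spread. Cd44, on whose product the cells were sorted, measured 95.3 ± 33.3 CPM in egressed and 253 ± 146 CPM in tumor-retained libraries (mean ± SD, n = 4 each, edgeR adjusted p = 0.133). Tissues came from 4 mice, and the labels do not say that libraries with the same number share a mouse, so that p-values measure the spread between libraries.

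An effector T cell that enters a tumor can be held there by adhesion molecules, chemokine receptors and continued antigen signals, or can return to lymph through the gradient of sphingosine 1-phosphate. The transcription factor KLF2 drives the receptor for that lipid and is switched off by antigen receptor signals. Long antigen exposure in tumors induces inhibitory receptors such as PD-1 and a programme named exhaustion, while stem-like and memory cells keep homing receptors and little of the killing machinery.

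The libraries differed in ways that bear on the comparison. Egressed libraries held 22.7 to 29.2 M counts (M, mega) and tumor-retained libraries 25.6 to 36.3 M. A gene without a count in a library could still have been at 0.0889 to 0.125 counts per M (CPM) there, depending on the library. Egressed libraries 3 and 4 and tumor-retained library 1 had counts in only 14927, 15251 and 15296 genes, against 20560 to 25916 in the other libraries. The 12 CD8 T cell identity genes summed to between 7760 and 8267 CPM in egressed and between 4978 and 9169 CPM in tumor-retained libraries (2-sided exact permutation p = 0.314). The 4 markers of CD4 and regulatory T cells summed to 80.0, 105.2, 70.4 and 79.3 CPM in egressed libraries 1 to 4, against 188, 152, 264 and 251 CPM in tumor-retained libraries 1 to 4 (exact p = 0.0286, the smallest that 4 against 4 libraries allow). Ikzf2, for Helios, made up most of each tumor-retained sum at 124 to 224 CPM and stood at 31.6 to 96.1 CPM in egressed libraries. Cd4 measured at most 2.49 CPM in egressed and 3.86 CPM in tumor-retained libraries, and Foxp3 had no count in egressed library 3 nor in tumor-retained libraries 1 and 2. Markers of macrophages and monocytes (12 genes) summed to 12.6, 29.4, 4.74 and 104.6 CPM in egressed libraries 1 to 4, against 32.7, 27.0, 1977 and 3217 CPM in tumor-retained libraries 1 to 4 (exact p = 0.2). Stromal markers (9 genes) summed to 29.1, 23.9, 2.65 and 19.6 CPM in egressed libraries 1 to 4, against 32.1, 55.9, 5422 and 2706 CPM in tumor-retained libraries 1 to 4. This last difference also had an exact p = 0.0286. Tumor-retained libraries 3 and 4 therefore carried myeloid and stromal transcripts at levels that tumor-retained libraries 1 and 2 did not. The macrophage markers Fcgr1 and Cd163 had no count in any egressed library nor in tumor-retained libraries 1 and 2.

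**Figure D1:**
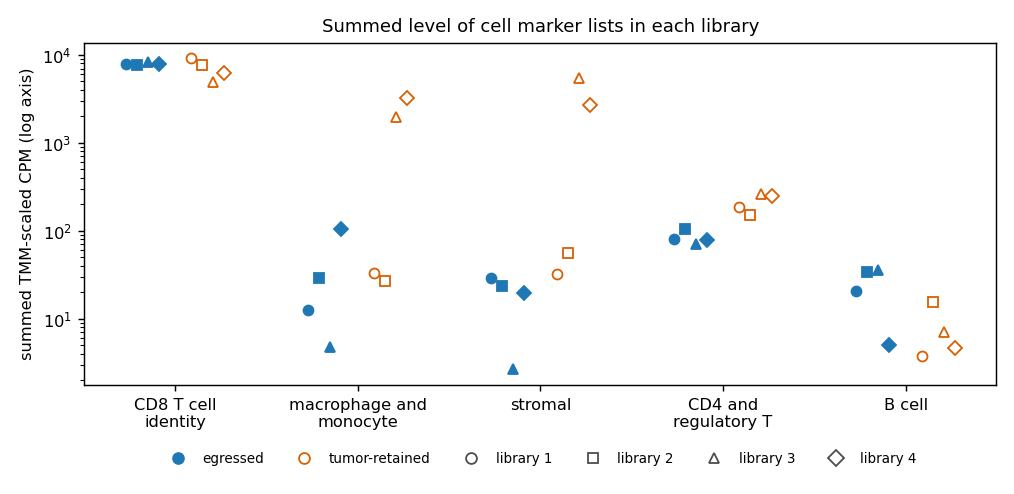
Summed TMM-scaled CPM (log axis) of 5 marker lists in each library, with egressed libraries as filled blue and tumor-retained libraries as open orange symbols. Macrophage and stromal markers reached 1977 to 5422 CPM in tumor-retained libraries 3 and 4 and at most 104.6 CPM in the other 6 libraries, while CD8 T cell genes summed to 4978 CPM or more in each of the 8.

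Egressed and tumor-retained cells differed in 235 of 21457 tested genes (1.1%) by edgeR's quasi-likelihood test at a Benjamini-Hochberg adjusted p of 0.05. In egressed cells 109 of them were higher (0.508% of tested genes) and 126 lower (0.587%). Without tumor-retained libraries 3 and 4 the test called 245 of 26001 genes (0.942%), of which 150 were higher (0.577%) and 95 lower (0.365%) in egressed cells. In that fit the median log2 fold change of all genes was 0.22, against 0.00 with every library. At an unadjusted p under 0.05, 9.57% of tested genes were higher and 7.81% lower in egressed cells, and DESeq2 called 4.19% higher and 4.8% lower and limma-voom 0.443% higher and 0.419% lower. Counts of list members by the same rules can be read against these shares. Both fits called 115 genes in the same direction, 54 higher and 61 lower in egressed cells, which is 0.536% of the 21450 genes tested in both. In 113 of these 115 genes the values of the 4 egressed and the 4 tumor-retained libraries did not overlap, as in 6.35% of all tested genes, and calls and overlap come from the same values. For 60 of the 115 genes (25 higher, 35 lower) the call also stood when any 1 of the 12 libraries was left out, and 57 of these 60 also passed once the 3 libraries with counts in the fewest genes were set aside.

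The number of calls depended on which libraries entered the fit. A fit of the 8 egressed and tumor-retained libraries alone called 13 of 15626 genes (0.0832%), all of them among the 235. They were Slc16a5, Dapl1, Ighm, Gm11346, Klra13-ps and Fam65b, higher in egressed cells, and Por, Tgif1, Mxi1, Pdcd1, Gzmb, Litaf and H1f0, lower in egressed cells. H1f0, a linker histone gene, was the only one of the 13 that did not pass without tumor-retained libraries 3 and 4 (adjusted p = 0.0638). That fit kept the spleen libraries. With the spleen libraries left out as well, the test called 5 of 20496 genes, so at most 5 of the 13 passed there. Leaving out any 1 spleen library left 96 to 100 of the 235 genes. The filter on low counts changed as well, with 22814 to 23074 genes tested against 21457 with every library. The parts of spread and filter in these counts were not tested. With the library number added to the model, 78 of 21457 genes passed, 76 of them among the 235. limma-voom with sample weights on the same 8 libraries, an alternative added after seeing the data, called 316 genes (0.973% higher and 1.05% lower), 170 of them among the 235 and 57 among the 60.

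**Figure D2:**
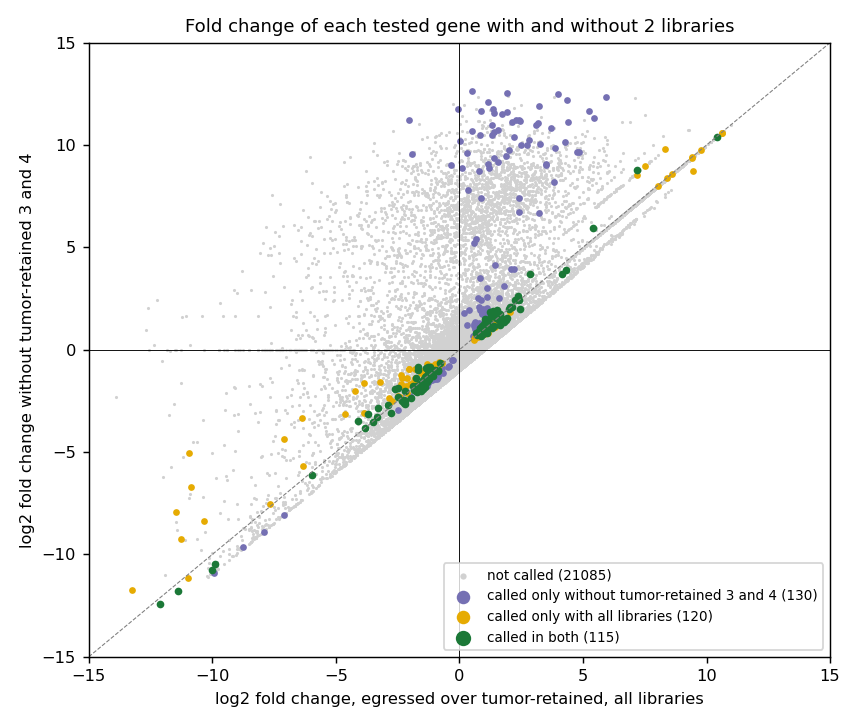
Log2 fold change (egressed over tumor-retained) of each gene tested in both fits, with every library on the horizontal axis and without tumor-retained libraries 3 and 4 on the vertical axis. The 115 genes called in both fits (green) lie near the dashed line of equal change, while the 130 called only without the libraries (purple) include many that stand near 10 to 12 on the vertical axis alone.

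The genes for leaving tissue and reaching lymph nodes that passed were higher in egressed cells, among them Klf2 and Rasgrp2. Of 19 tested genes of lymphoid homing and tissue exit, 4 rose, all 4 of them in both fits, and 0 fell, with 9 higher and 2 lower at an unadjusted p under 0.05 and 5 higher and 1 lower by DESeq2. The list's median log2 fold change was 0.55, against 0.00 over all genes, and 0.40 without tumor-retained libraries 3 and 4, against 0.22.

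Klf2 measured 584, 648, 636 and 789 CPM in egressed libraries 1 to 4 and 236, 291, 126 and 115 CPM in tumor-retained libraries 1 to 4 (log2 fold change 1.79 ± 0.26, adjusted p = 0.00921). Its log2 fold change was 1.35 and the adjusted p 0.00438 without tumor-retained libraries 3 and 4. Tumor-retained libraries 3 and 4 held the lowest values and the groups did not overlap. Rasgrp2 (chromosome 19, 6399340 to 6415216), for the exchange factor that activates Rap1 and through it integrins, measured 194, 142, 207 and 202 CPM in egressed libraries 1 to 4, against 52.8, 77.7, 25.3 and 41.2 CPM in tumor-retained libraries 1 to 4 (log2 fold change 1.92 ± 0.28, adjusted p = 0.00921). Arhgef1, for a RhoA exchange factor that acts below G12 and G13 proteins, had 1984 ± 241 CPM in egressed and 1153 ± 171 CPM in tumor-retained libraries (mean ± SD, n = 4 each; log2 fold change 0.78 ± 0.13, adjusted p = 0.0138). The Arhgef1 call ended without egressed library 4 (adjusted p = 0.0701) and without the 3 libraries of fewest detected genes (0.0947).

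Fam65b, which encodes an inhibitor of RhoA, measured 716, 745, 831 and 729 CPM in egressed libraries 1 to 4, against 356, 318, 226 and 255 CPM in tumor-retained libraries 1 to 4 (log2 fold change 1.39 ± 0.14, adjusted p = 0.00138). Its 4 egressed values lay within 716 to 831 CPM, above the highest tumor-retained value of 356 CPM. Gna13, for the G13 alpha subunit, was lower in egressed cells, with 165 ± 34.8 CPM in egressed and 414 ± 125 CPM in tumor-retained libraries (log2 fold change -1.33 ± 0.23, adjusted p = 0.0203). Its call ended without tumor-retained library 4 (adjusted p = 0.0564) and without the 3 libraries of fewest detected genes (0.0615). Fam65b and Gna13 stand outside the rule that chose the named genes and were picked after their values were seen. The same holds for Bin2, Acp5, Slc44a2, Smc4, Vipr1, Ppan, Pwp2, Rps7, Mxd1, Pmepa1, Tgif1, Tiparp, Odc1, Atp13a3, Pde4d, Prkar1a, Por, Abcb1a, Ncf1, Lilrb4a, Gm11346, Klra13-ps and H1f0.

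A pair of receptors that guide exit and homing did not pass. S1pr1, the sphingosine 1-phosphate receptor, measured 663, 559, 858 and 597 CPM in egressed libraries 1 to 4, against 657, 360.3, 291 and 277 CPM in tumor-retained libraries 1 to 4 (adjusted p = 0.155). Tumor-retained library 1 lay among the egressed values and tumor-retained libraries 2 to 4 below them. The chemokine receptor gene Ccr7 had the same arrangement, with 823 CPM in tumor-retained library 1 and 187 to 475 CPM in tumor-retained libraries 2 to 4 (adjusted p = 0.171). Without the 3 libraries of fewest detected genes both passed (adjusted p = 0.0462 for S1pr1 and 0.0468 for Ccr7). This omission removed tumor-retained library 1, which lay among the egressed values, and egressed libraries 3 and 4. DESeq2 on every library called neither gene (adjusted p = 0.0808 for S1pr1 and 0.0942 for Ccr7).

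The genes of stem-like and memory cells that passed were also higher in egressed cells, with Dapl1 changed the most. Of 23 tested, 4 rose (Dapl1, Nsg2, Treml2 and Il6ra), 3 of them in both fits, and 0 fell, with 13 higher and 2 lower at an unadjusted p under 0.05 and 8 higher and 2 lower by DESeq2. The median log2 fold change was 0.70, and 0.64 without tumor-retained libraries 3 and 4, where Il6ra, for a subunit of the interleukin 6 receptor, did not pass (adjusted p = 0.123). Dapl1 (chromosome 2, 59484653 to 59505020), a gene found in stem-like and memory CD8 T cells, measured 218, 221, 332 and 347 CPM in egressed libraries 1 to 4, against 12, 31.7, 10.5 and 9.19 CPM in tumor-retained libraries 1 to 4. The lowest egressed value was several times the highest tumor-retained one, which came from library 2. Its log2 fold change was 4.14 ± 0.40, adjusted p = 0.00137, and it was 3.70 and the adjusted p 0.0041 without tumor-retained libraries 3 and 4. Nsg2, a vesicle protein gene, varied little between egressed libraries, at 111, 116, 111 and 109 CPM in egressed libraries 1 to 4, against 29, 52.5, 38.3 and 26.2 CPM in tumor-retained libraries 1 to 4 (log2 fold change 1.62 ± 0.21, adjusted p = 0.00614). Treml2, a receptor gene of the TREM family, measured 77.2 ± 24.8 CPM in egressed and 17.4 ± 5.29 CPM in tumor-retained libraries (log2 fold change 2.15 ± 0.31, adjusted p = 0.00919), and with limma-voom on 8 libraries its adjusted p was 0.114. Tcf7, for the factor TCF1 of stem-like cells, did not pass (adjusted p = 0.167), and tumor-retained library 1 stood at 1363 CPM, within the egressed range of 1294 to 1487 CPM.

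Dtx1 (chromosome 5, 120680202 to 120711927), for the Notch regulator Deltex 1, measured 342, 239.7, 409 and 439 CPM in egressed libraries 1 to 4, against 11.1, 37.2, 20.8 and 2.93 CPM in tumor-retained libraries 1 to 4. The lowest egressed value was several times the highest tumor-retained one (log2 fold change 4.31 ± 0.60, adjusted p = 0.00752). It was the only one of 20 tested Notch pathway genes that passed. Slc16a5 (chromosome 11, 115462474 to 115474398), of the monocarboxylate transporter family, measured 18.5, 36.9, 34 and 22.3 CPM in egressed libraries 1 to 4 and had 1 count each in tumor-retained libraries 1 and 3 and none in 2 and 4. The ratio of the summed counts was 1776 (95% exact interval 491 to 14670, counting error only; edgeR adjusted p = 5.16e-05). Art2b, for a cell surface ADP-ribosyltransferase, measured 60.2, 38.4, 127 and 59.8 CPM in egressed libraries 1 to 4, against 0.0307, 2.36, 2.8 and 1.51 CPM in tumor-retained libraries 1 to 4 (log2 fold change 5.41 ± 0.85, adjusted p = 0.0119). Its groups were far apart, yet limma-voom on 8 libraries gave an adjusted p of 0.0814.

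Genes of signalling, transport and the cell surface were among the others that rose. Ptpn6, for the phosphatase SHP-1 that dampens antigen receptor signals, measured 764, 666, 758 and 647 CPM in egressed libraries 1 to 4, against 275, 176, 309 and 318 CPM in tumor-retained libraries 1 to 4 (log2 fold change 1.39 ± 0.18, adjusted p = 0.00476). It was the only one of 23 tested antigen receptor brakes that passed with every library, beside 5 higher and 5 lower members at an unadjusted p under 0.05. Without tumor-retained libraries 3 and 4 it passed again, as did Spry1, higher, and Ptpn22, lower in egressed cells. Vipr1, a receptor for vasoactive intestinal peptide, measured 68.9 ± 10.4 CPM in egressed and 23.8 ± 3.8 CPM in tumor-retained libraries (log2 fold change 1.54 ± 0.22, adjusted p = 0.00814). Bin2, a membrane-bending protein gene of blood cells (1.06 ± 0.11, adjusted p = 0.00138), Slc44a2, a choline transporter-like gene (1.16 ± 0.16, adjusted p = 0.00732), and Acp5, for tartrate-resistant acid phosphatase (1.31 ± 0.19, adjusted p = 0.00929), each passed in both fits and in every single omission. So did Smc4, for a condensin subunit (0.91 ± 0.13, adjusted p = 0.00815), and Fam117a (2.06 ± 0.28, adjusted p = 0.00752). Aqp9, a channel for water and glycerol, had 60.5 ± 24.2 CPM in egressed and 8.46 ± 4.6 CPM in tumor-retained libraries (log2 fold change 2.84 ± 0.50, adjusted p = 0.0211), and its call ended without egressed library 1 (adjusted p = 0.0586) or 2 (0.0616). Klra13-ps, annotated as a pseudogene of the Ly49 receptor family, measured 347, 285, 236 and 295 CPM in egressed libraries 1 to 4, against 57.4, 51.7, 46.5 and 90.4 CPM in tumor-retained libraries 1 to 4 (log2 fold change 2.24 ± 0.23, adjusted p = 0.00138). Its reads may belong to near-identical family members, so the value is uncertain as to gene.

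Ighm (chromosome 12, 113418558 to 113422730), for the heavy chain of IgM, was the gene with the smallest adjusted p. It measured 609.9, 669, 592 and 588 CPM in egressed libraries 1 to 4, against 103, 131, 107 and 117 CPM in tumor-retained libraries 1 to 4 (log2 fold change 2.43 ± 0.12, adjusted p = 2.81e-06), and the adjusted p was 0.000274 without tumor-retained libraries 3 and 4. Both groups were narrow and far apart. The 5 B cell markers summed to 20.4, 33.6, 36.1 and 5.03 CPM in egressed libraries 1 to 4, against 3.75, 15.4, 7.15 and 4.68 CPM in tumor-retained libraries 1 to 4 (exact p = 0.0857). Egressed library 4 had no count of Cd79a or Cd79b and 588 CPM of Ighm. Tumor-retained library 2 had 12.5 CPM of Cd79b and 131 CPM of Ighm.

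Some genes for ribosomal proteins and for ribosome assembly were higher in egressed cells. Of 23 tested ribosomal protein genes 5 rose (Rpl10a, Rpl4, Rps19, Rps6 and Rpsa), 2 of them in both fits, and 0 fell by edgeR. At an unadjusted p under 0.05, 20 were higher and 0 lower, and DESeq2 called 11 higher and 0 lower. All 23 fold changes were positive under TMM scaling, with a median log2 fold change of 0.53, and 0.50 without tumor-retained libraries 3 and 4, against 0.22 over all genes in that fit. Rpl10a, for a protein of the large subunit, measured 367, 309, 297 and 370.2 CPM in egressed libraries 1 to 4, against 143, 155, 203 and 156 CPM in tumor-retained libraries 1 to 4 (log2 fold change 1.03 ± 0.15, adjusted p = 0.00814). Rpsa, the other gene of this list that rose in both fits, kept its call in 1 of 12 single omissions (adjusted p up to 0.124), and lost it with no filter on low counts (0.0624) and with limma-voom (0.119). Ribosomal protein genes have many processed copies in the genome, and reads may be split among them. Rps7, a small subunit gene outside that list, had 717 ± 40.6 CPM in egressed and 399 ± 60.6 CPM in tumor-retained libraries (log2 fold change 0.85 ± 0.12, adjusted p = 0.00921), and its call ended without egressed library 4 (adjusted p = 0.0530). Ppan (1.64 ± 0.24, adjusted p = 0.00921) and Pwp2 (1.50 ± 0.24, adjusted p = 0.0139), whose yeast counterparts act in the assembly of ribosomal subunits, passed in both fits and in every single omission. Without the 3 libraries of fewest detected genes the adjusted p of Pwp2 was 0.0539.

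**Figure D3:**
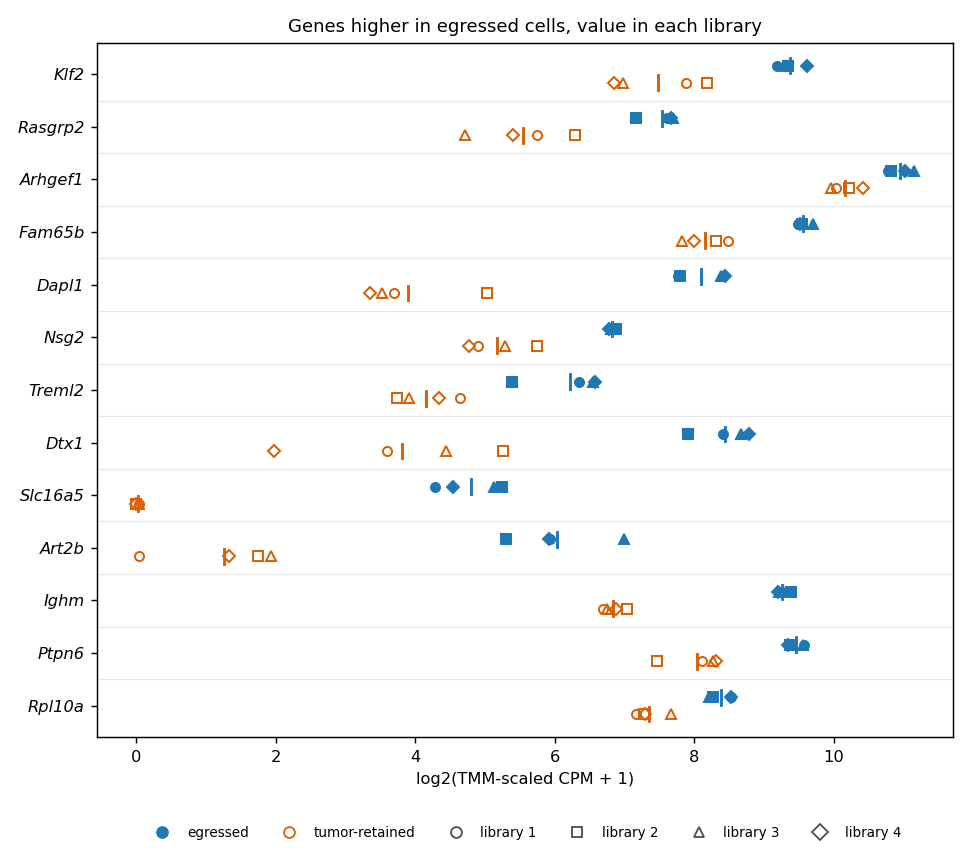
Log2(TMM-scaled CPM + 1) of 13 genes that were higher in egressed cells, with 1 symbol per library and a bar at the mean of each group (n = 4). Egressed libraries (filled blue) lie to the right of tumor-retained libraries (open orange) for every gene shown, and Slc16a5 sits close to 0 in tumor-retained cells. The genes were chosen among those called, so their separation follows from the choice.

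The killing molecule genes that passed, for granzyme B and serglycin, were lower in egressed cells. Of 17 tested cytotoxic genes 2 fell, Gzmb and Srgn, both in both fits, and 0 rose, with 9 lower and 1 higher at an unadjusted p under 0.05 and 7 lower by DESeq2. The list's median log2 fold change was -1.05, and -0.71 without tumor-retained libraries 3 and 4. Gzmb, for granzyme B, measured 123, 104, 132 and 166 CPM in egressed libraries 1 to 4, against 1396, 2401, 1792 and 1846 CPM in tumor-retained libraries 1 to 4. The groups lay far apart, with a highest egressed value of 166 CPM and a lowest tumor-retained value of 1396 CPM. Its log2 fold change was -3.82 ± 0.41, adjusted p = 0.00154, and it was -3.84 and the adjusted p 0.00535 without tumor-retained libraries 3 and 4. Srgn (chromosome 10, 62493833 to 62527451), for serglycin, the proteoglycan that stores granzymes in granules, measured 393, 332, 281 and 279 CPM in egressed libraries 1 to 4, against 1028, 751, 684 and 1109 CPM in tumor-retained libraries 1 to 4 (log2 fold change -1.47 ± 0.19, adjusted p = 0.00467). Spleen cells had 36.4 ± 22.2 CPM of Gzmb and 207 ± 27.5 CPM of Srgn, below both red populations.

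The genes of PD-1 and of the costimulatory receptor 4-1BB, with its ligand, were lower in egressed cells. Of 16 tested inhibitory receptors 2 fell (Pdcd1 and Entpd1) and 0 rose. Of 13 tested costimulatory receptors 3 fell (Tnfrsf9, Tnfrsf1b and Tnfrsf18) and 0 rose. Pdcd1, Tnfrsf9 and Tnfrsf1b fell in both fits, while Entpd1 and Tnfrsf18 did not pass without tumor-retained libraries 3 and 4. At an unadjusted p under 0.05, 7 inhibitory receptors were lower and 1 higher, and 5 costimulatory receptors were lower and 2 higher. Pdcd1 measured 28.5, 47.7, 42.9 and 19.6 CPM in egressed libraries 1 to 4, against 501, 302, 214 and 536 CPM in tumor-retained libraries 1 to 4. The groups were separated by a wide gap (log2 fold change -3.48 ± 0.46, adjusted p = 0.00645), and the log2 fold change was -3.53 and the adjusted p 0.00953 without tumor-retained libraries 3 and 4. Tnfrsf9, for 4-1BB, measured 34.3, 4.4, 11.8 and 17.8 CPM in egressed libraries 1 to 4, against 203, 104, 254 and 323 CPM in tumor-retained libraries 1 to 4 (log2 fold change -3.69 ± 0.56, adjusted p = 0.0104). Tnfsf9 (chromosome 17, 57105325 to 57107757), which encodes the ligand of 4-1BB, changed with it, at 1.09, 1.21, 0.654 and 0.0415 CPM in egressed libraries 1 to 4, against 44.1, 60.3, 20.2 and 62 CPM in tumor-retained libraries 1 to 4 (log2 fold change -5.95 ± 0.92, adjusted p = 0.0104). For Tnfrsf9 the call ended without the 3 libraries of fewest detected genes (adjusted p = 0.0578), and for Tnfsf9 it ended with limma-voom on 8 libraries (0.0676). Tnfrsf1b, for the TNF receptor 2, had 186 ± 64.6 CPM in egressed and 734 ± 349.6 CPM in tumor-retained libraries (log2 fold change -1.98 ± 0.36, adjusted p = 0.0272), and its call stood in 4 of 12 single omissions (adjusted p up to 0.0692). Havcr2, for TIM-3, had no count in egressed libraries 3 and 4 and 23.5 to 212 CPM in tumor-retained libraries, and did not pass (adjusted p = 0.067).

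The chemokine receptor genes Cxcr6 and Ccr8 and the residency-linked gene Litaf were lower in egressed cells. Of 20 tested residency genes 3 fell (Ccr8, Cxcr6 and Litaf), each in both fits, and 0 rose, with 7 lower and 2 higher at an unadjusted p under 0.05. Of 18 tested chemokine receptors 4 fell, Ccr8, Cxcr6 and Ccr2 among them, and 0 rose, and 2 of the 4 fell in both fits. Cxcr6, for the receptor of CXCL16, measured 278, 261, 142 and 143 CPM in egressed libraries 1 to 4, against 618, 782, 524 and 868 CPM in tumor-retained libraries 1 to 4 (log2 fold change -1.76 ± 0.25, adjusted p = 0.00815). Ccr8, a receptor for CCL8 in mice, had no count in 4 of 4 egressed libraries, against 33.3, 16.2, 11.1 and 16.1 CPM in tumor-retained libraries 1 to 4. It was at least 169.1-fold lower in egressed cells against a floor of 3 counts per library (edgeR adjusted p = 0.0104). Litaf, which encodes a membrane protein of late endosomes, measured 13.4, 22.2, 10.7 and 19.7 CPM in egressed libraries 1 to 4, against 172, 193, 335 and 432 CPM in tumor-retained libraries 1 to 4 (log2 fold change -4.10 ± 0.43, adjusted p = 0.00138). Its exons overlap those of Snn on the other strand, and whether the libraries kept strand is not given. The same limit holds for Aldoa (with Fam57b), Gapdh (Iffo1), Tpi1 (Spsb2), Ncf1 (Gtf2ird2), Stk32c (Lrrc27), Tfb1m (Tiam2) and Als2cl (Tmie), and for genes such as Bhlhe40, Hif1a, Jun, Mxi1, Ptpn6 and Slc16a5 whose exons overlap a predicted or noncoding gene on the other strand. Itgae and Cd69, other genes of tissue-resident cells, did not pass (adjusted p = 0.571 and 0.157), and Cd69 was 627 ± 203 CPM in egressed and 341 ± 146 CPM in tumor-retained libraries.

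The NK-type receptor genes Klrk1 and Klrc1 and the transcription factor genes Bhlhe40, Id2 and Hif1a were lower in egressed cells. Of 20 tested NK-type receptors 2 fell in both fits and 0 rose, with 7 lower and 0 higher at an unadjusted p under 0.05. Klrk1 (chromosome 6, 129610323 to 129623864), for the activating receptor NKG2D, measured 307, 234, 132 and 207 CPM in egressed libraries 1 to 4, against 699.5, 839, 618 and 1074 CPM in tumor-retained libraries 1 to 4 (log2 fold change -1.88 ± 0.28, adjusted p = 0.00989). Klrc1, for NKG2A, had 160.1 ± 57.6 CPM in egressed and 561 ± 149.6 CPM in tumor-retained libraries (log2 fold change -1.81 ± 0.32, adjusted p = 0.0232), and its call ended without egressed library 1 (adjusted p = 0.0526), egressed library 3 (0.0563) or tumor-retained library 4 (0.0661). Of 23 tested exhaustion and effector regulators 5 fell (Bhlhe40, Hif1a, Id2, Ikzf2 and Nr4a2; Ikzf2 is also a marker of regulatory T cells), 3 of them in both fits, and 0 rose, with 11 lower and 1 higher at an unadjusted p under 0.05. Bhlhe40, a factor induced by antigen receptor signals, measured 88.7, 114, 66.1 and 30.8 CPM in egressed libraries 1 to 4, against 357, 618, 396 and 831 CPM in tumor-retained libraries 1 to 4 (log2 fold change -2.88 ± 0.42, adjusted p = 0.00921). Id2, which blocks E proteins and favours effector cells, measured 488, 442, 400.1 and 320.1 CPM in egressed libraries 1 to 4, against 706, 928, 749 and 900.3 CPM in tumor-retained libraries 1 to 4 (log2 fold change -0.99 ± 0.15, adjusted p = 0.00989). Its groups did not overlap, but the difference was about 1 on the log2 scale. Tox was 40.3 ± 16.6 CPM in egressed and 18.8 ± 5.45 CPM in tumor-retained libraries and did not pass (adjusted p = 0.149).

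Lilrb4a (chromosome 10, 51490956 to 51496611), an inhibitory receptor gene with a close paralog beside it, measured 90.9, 65.5, 36.5 and 88.3 CPM in egressed libraries 1 to 4, against 181, 342, 313 and 753 CPM in tumor-retained libraries 1 to 4 (log2 fold change -2.50 ± 0.42, adjusted p = 0.0165). Tumor-retained library 4, which carried the most macrophage transcripts, held its highest value, and without tumor-retained libraries 3 and 4 the adjusted p was 0.0485. Ncf1, for the p47 subunit of the phagocyte oxidase, measured 9.19, 14.8, 12.2 and 17.4 CPM in egressed libraries 1 to 4, against 71.5, 64.1, 74.9 and 90.7 CPM in tumor-retained libraries 1 to 4 (log2 fold change -2.49 ± 0.30, adjusted p = 0.00439). Its 4 tumor-retained values lay within 64.1 to 90.7 CPM, and the part of macrophage transcripts in them was not tested. Capg, for an actin capping protein, measured 78.9, 86.7, 49.5 and 57 CPM in egressed libraries 1 to 4, against 229, 295, 579.7 and 561 CPM in tumor-retained libraries 1 to 4 (log2 fold change -2.61 ± 0.33, adjusted p = 0.00456), with tumor-retained libraries 3 and 4 above 1 and 2. Capg was the only one of the 4 genes called in the list of calcium-binding and actin-linked genes (22 tested, with Anxa2, Lgals1 and Lgals3) that fell in both fits. That list's median log2 fold change was -1.69 with every library and -0.50 without tumor-retained libraries 3 and 4.

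Of the 27 gene lists glycolysis held the most calls, and those that passed were lower in egressed cells. Of 21 tested glycolysis genes 8 fell and 0 rose, with 12 lower and 0 higher at an unadjusted p under 0.05. Aldoa, Eno1, Gapdh, Gpi1 and Ldha fell in both fits, and Pgam1, Pkm and Tpi1 did not pass without tumor-retained libraries 3 and 4 (adjusted p = 0.249, 0.0521 and 0.162). The list's median log2 fold change was -1.26, and -0.82 without the 2 libraries, beside medians of 0.00 and 0.22 over all genes. Aldoa (chromosome 7, 126795234 to 126800751), for aldolase A, measured 455, 406, 415 and 520.5 CPM in egressed libraries 1 to 4, against 872, 778, 1168 and 1321 CPM in tumor-retained libraries 1 to 4. Tumor-retained libraries 3 and 4 held the highest values, and libraries 1 and 2 still lay above every egressed library (log2 fold change -1.20 ± 0.17, adjusted p = 0.00753). Gapdh measured 778, 708, 607 and 580.2 CPM in egressed libraries 1 to 4, against 1561, 1101, 1943 and 1810.3 CPM in tumor-retained libraries 1 to 4. Ldha, for lactate dehydrogenase A, measured 765, 724, 522 and 465 CPM in egressed libraries 1 to 4, against 1461, 1017, 1698 and 1839 CPM in tumor-retained libraries 1 to 4. The lowest tumor-retained value of both genes came from library 2. The log2 fold changes were -1.26 ± 0.17 for Gapdh and -1.28 ± 0.20 for Ldha, and -0.99 for both without the 2 libraries (adjusted p = 0.0189 and 0.0485). For Ldha the call ended without the 3 libraries of fewest detected genes (adjusted p = 0.0529), and for Gpi1 without egressed library 4 (0.0530).

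Of 19 tested hypoxia response genes 2 fell, Hif1a and Mxi1, and 0 rose, with 11 lower and 1 higher at an unadjusted p under 0.05. The median log2 fold change of this list was -1.95 with every library and -0.69 without tumor-retained libraries 3 and 4. Hif1a, for the oxygen-regulated factor HIF-1α, measured 129, 115, 39.6 and 133 CPM in egressed libraries 1 to 4, against 333, 507, 415 and 651 CPM in tumor-retained libraries 1 to 4 (log2 fold change -2.19 ± 0.34, adjusted p = 0.0104). Mxi1 (chromosome 19, 53310518 to 53375810) and Mxd1 (chromosome 6, 86647042 to 86669161) encode partners of MAX that oppose MYC. Mxi1 measured 10.3, 8.08, 10.2 and 12.7 CPM in egressed libraries 1 to 4, against 70.9, 76.3, 94.6 and 161 CPM in tumor-retained libraries 1 to 4 (log2 fold change -3.29 ± 0.34, adjusted p = 0.00138). Mxd1 measured 217, 210.0, 160.3 and 234 CPM in egressed libraries 1 to 4, against 914, 807, 399.6 and 562 CPM in tumor-retained libraries 1 to 4 (log2 fold change -1.71 ± 0.23, adjusted p = 0.00739). In Mxi1 tumor-retained library 4 was highest, and in Mxd1 tumor-retained libraries 1 and 2 were. Without tumor-retained libraries 3 and 4 the log2 fold changes were -2.82 for Mxi1 and -2.06 for Mxd1.

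HIF-1α binds DNA at short cores of which ACGTG is one form, and MYC and MAX partners bind CACGTG, which contains ACGTG. Only ACGTG and CACGTG were searched, so a window without ACGTG may still hold another form of the core. The windows from 250 bases before to 50 after the start were read for the 5 glycolysis genes that fell in both fits and for Mxi1 (RefSeq, build GRCm38.p6, 5′ to 3′ along each gene's strand). Of these 6 windows 2 held ACGTG, those of Mxi1 and Gapdh, and 4 did not, those of Aldoa, Eno1, Gpi1 and Ldha. The windows with a match are shown with that of Ldha as one without, and for these 3 genes the start lies inside the span that GENCODE gives the gene. Capitals mark ACGTG or its reverse complement CACGT.
Mxi1 promoter, chr19:53329163-53329462, plus strand: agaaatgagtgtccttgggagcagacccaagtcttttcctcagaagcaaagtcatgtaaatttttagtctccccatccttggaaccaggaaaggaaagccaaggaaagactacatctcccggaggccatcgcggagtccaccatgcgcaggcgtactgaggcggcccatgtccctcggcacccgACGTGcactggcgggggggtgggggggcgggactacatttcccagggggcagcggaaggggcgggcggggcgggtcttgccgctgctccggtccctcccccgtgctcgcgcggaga
Gapdh promoter, chr6:125165724-125166023, minus strand: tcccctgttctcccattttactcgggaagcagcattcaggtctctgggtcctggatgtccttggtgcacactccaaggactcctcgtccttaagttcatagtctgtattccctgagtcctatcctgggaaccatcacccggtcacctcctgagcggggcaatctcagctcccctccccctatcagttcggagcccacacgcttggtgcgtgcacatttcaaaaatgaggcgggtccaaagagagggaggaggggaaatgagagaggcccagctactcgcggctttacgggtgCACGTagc
Ldha promoter, chr7:46846832-46847131, plus strand: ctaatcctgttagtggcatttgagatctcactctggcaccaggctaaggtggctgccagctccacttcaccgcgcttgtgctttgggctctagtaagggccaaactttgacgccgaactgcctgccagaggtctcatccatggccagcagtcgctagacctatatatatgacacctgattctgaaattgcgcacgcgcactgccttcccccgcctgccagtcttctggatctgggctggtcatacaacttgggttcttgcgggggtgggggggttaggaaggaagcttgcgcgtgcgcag
The Mxi1 window held 1 ACGTG, beginning 66 bases before the start, the Gapdh window held 1, 43 bases after the start, and the Ldha window held none. ACGTG, on either strand, was present in 10 of the 48 windows of genes lower in both fits (20.8%). It was present in 8 of the 39 windows of genes higher in both fits (20.5%) and in 24.0% of the 12733 windows of tested genes. CACGTG was present in 6.25%, 7.69% and 9.37% of the same 3 sets. For both motifs the share in genes that fell was below the share in all tested genes. Over all 27025 windows the shares were 19.7% for ACGTG and 7.26% for CACGTG, so for ACGTG the genes that fell lay between these references. The differences were not tested, and a match or its absence says nothing of binding.

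Pmepa1 (chromosome 2, 173224458 to 173276533), a target of TGF-β that restrains its Smad signal, measured 12.4, 8.34, 14 and 18.5 CPM in egressed libraries 1 to 4, against 133, 92.5, 60.4 and 76.9 CPM in tumor-retained libraries 1 to 4 (log2 fold change -2.77 ± 0.35, adjusted p = 0.00456). Tgif1, a corepressor of Smad proteins, measured 87.4, 69.1, 79.3 and 79.6 CPM in egressed libraries 1 to 4, against 242, 204, 165 and 229.6 CPM in tumor-retained libraries 1 to 4 (log2 fold change -1.41 ± 0.17, adjusted p = 0.00456). Both had their lowest tumor-retained value in library 3 and did not overlap between groups. Tiparp, a target of the aryl hydrocarbon receptor, was narrow in egressed cells at 46.6, 51.4, 44.3 and 45.3 CPM in egressed libraries 1 to 4, against 117, 132, 120.0 and 258 CPM in tumor-retained libraries 1 to 4 (log2 fold change -1.74 ± 0.26, adjusted p = 0.00989). Odc1, for the enzyme that starts polyamine synthesis (-1.57 ± 0.25, adjusted p = 0.0125), and Atp13a3, for a polyamine transporter (-1.70 ± 0.26, adjusted p = 0.0104), fell in both fits and in every single omission. Pde4d, for a phosphodiesterase that breaks down cyclic AMP (-2.32 ± 0.36, adjusted p = 0.0104), and Prkar1a, for a regulatory subunit of protein kinase A (-0.77 ± 0.11, adjusted p = 0.00815), did as well. Por, for the reductase that feeds cytochrome P450 enzymes, measured 114, 83.1, 93.5 and 94 CPM in egressed libraries 1 to 4, against 273, 197, 234 and 270.1 CPM in tumor-retained libraries 1 to 4 (log2 fold change -1.34 ± 0.16, adjusted p = 0.00439). Abcb1a, for a P-glycoprotein drug efflux pump, had 87.5 ± 18.3 CPM in egressed and 228 ± 36.9 CPM in tumor-retained libraries (log2 fold change -1.38 ± 0.19, adjusted p = 0.00814).

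Jun, for an AP-1 factor, was the only one of 23 tested heat shock and immediate early genes that passed, and it was higher in egressed cells, at 1184, 1448, 955 and 927 CPM in egressed libraries 1 to 4, against 297, 345, 557 and 720.0 CPM in tumor-retained libraries 1 to 4 (log2 fold change 1.23 ± 0.26, adjusted p = 0.0472). Its call stood in 1 of 12 single omissions (adjusted p up to 0.113). Of 20 tested survival and death genes 3 fell (Bcl2l11, Bcl2a1d and Mcl1) and 0 rose, with 6 lower and 0 higher at an unadjusted p under 0.05. Mcl1 did not pass without tumor-retained libraries 3 and 4. Bcl2l11 (chromosome 2, 128126038 to 128162547), for the death-promoting protein BIM, measured 147, 109, 61.5 and 97.7 CPM in egressed libraries 1 to 4, against 409, 396, 270.2 and 397 CPM in tumor-retained libraries 1 to 4 (log2 fold change -1.83 ± 0.24, adjusted p = 0.0058). Bcl2a1d, for an A1 protein that protects from death, had 18.1 ± 8.51 CPM in egressed and 86.1 ± 22.4 CPM in tumor-retained libraries (log2 fold change -2.25 ± 0.37, adjusted p = 0.0161), and its call ended without egressed library 1 (adjusted p = 0.0621). The A1 genes are nearly identical copies, so reads may be split among them.

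**Figure D4:**
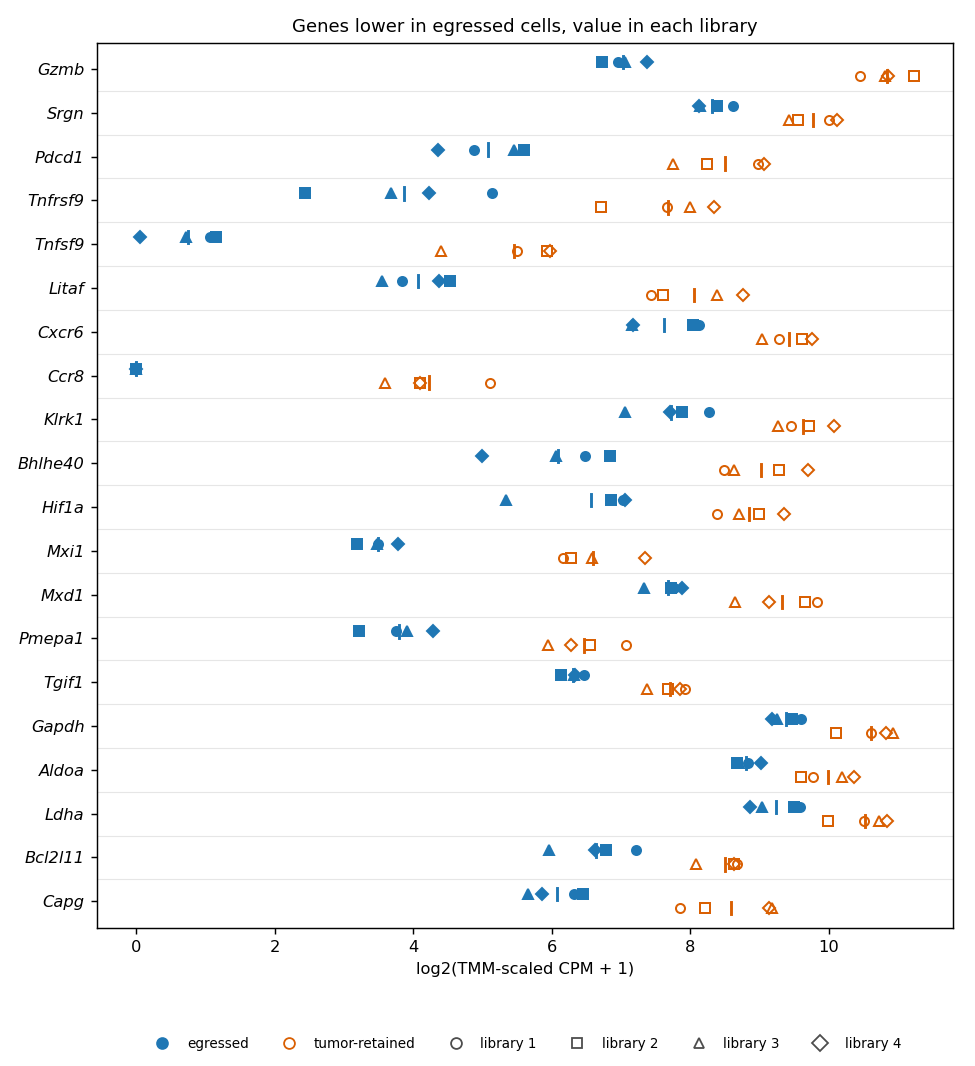
Log2(TMM-scaled CPM + 1) of 20 genes that were lower in egressed cells, with 1 symbol per library and a bar at the mean of each group (n = 4). Egressed libraries (filled blue) lie to the left of tumor-retained libraries (open orange) for every gene shown, and Ccr8 sits at 0 in egressed cells. The genes were chosen among those called, so their separation follows from the choice.

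Rnf24 and Stk32c were close to absent from egressed cells, and Tex2 was low there. Rnf24, for a ring finger protein, had no count in 4 of 4 egressed libraries, against 29.5, 2.21, 4.09 and 9.72 CPM in tumor-retained libraries 1 to 4, and was at least 100.4-fold lower against a floor of 3 counts per library (edgeR adjusted p = 0.0146). Its exons overlap those of Pank2 on the other strand. Tex2, for a lipid transfer protein of the endoplasmic reticulum, measured 20.4, 15.1, 3.7 and 3.49 CPM in egressed libraries 1 to 4, against 98.3, 113, 106 and 112 CPM in tumor-retained libraries 1 to 4 (log2 fold change -3.33 ± 0.54, adjusted p = 0.0139). The 4 tumor-retained values were nearly equal, and egressed libraries 3 and 4, which detected few genes, held the lowest egressed values. Stk32c had 1 count in egressed libraries and 1685 in tumor-retained ones, a ratio of tumor-retained over egressed of 1435 (95% exact interval 257 to 56700, counting error only), and its call stood in 4 of 12 single omissions (edgeR adjusted p = 0.0351, and up to 0.0969).

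The 120 genes that passed with every library but not without tumor-retained libraries 3 and 4 kept their sign in that fit, 55 higher and 65 lower in egressed cells. Both fits share the egressed libraries and tumor-retained libraries 1 and 2, so the kept sign follows largely from the selection. The median log2 fold change of the 65 lower genes was -1.80 with every library and -1.44 without, and that of the 55 higher genes was 1.14 and 1.11. The lower genes with the largest changes were Esm1, Hmox1, Sphk1, Igfbp3 and Mgp. Igfbp3, for a carrier of insulin-like growth factors, measured 0.0782, 0.531, 0 and 0 CPM in egressed libraries 1 to 4, against 0.0922, 10.3, 1059 and 147 CPM in tumor-retained libraries 1 to 4 (adjusted p = 0.0452, and 0.286 without the 2 libraries). Mgp, for matrix Gla protein, measured 0.117, 0.0759, 0 and 0 CPM in egressed libraries 1 to 4, against 9.74, 1.16, 208 and 172 CPM in tumor-retained libraries 1 to 4 (adjusted p = 0.0164 and 0.147). Hmox1, for heme oxygenase 1, had 3 counts in egressed libraries and measured 0.0307, 16, 290.2 and 60.2 CPM in tumor-retained libraries 1 to 4 (adjusted p = 0.0351 and 0.131). In each of these 3 genes tumor-retained library 3 was highest and library 4 next. Of the 65 lower genes, 39 (60%) had tumor-retained libraries 3 and 4 above 1 and 2, against 23.5% of all tested genes. The 65 were selected by a call that ended without libraries 3 and 4, so this share describes the selection. The part of stromal and myeloid transcripts in these genes was not tested. Fewer cells of a type and less RNA per cell cannot be told apart in libraries of this kind. Esm1, a proteoglycan gene, had no egressed count and was at 22.0, 8.27, 116.8 and 20.9 CPM in tumor-retained libraries 1 to 4 (adjusted p = 0.0272 and 0.0689).

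Among the 55 higher genes of that kind, the largest changes at 10 CPM or more included Als2cl, Fgf13, Pik3ip1 and Arl5c. Pik3ip1, for an inhibitor of phosphoinositide 3-kinase, measured 146, 234, 224 and 324 CPM in egressed libraries 1 to 4, against 68, 128, 58.2 and 71.9 CPM in tumor-retained libraries 1 to 4 (log2 fold change 1.51 ± 0.30, adjusted p = 0.0344). Tumor-retained library 2 held its highest tumor-retained value, and its log2 fold change without them was 1.26 (adjusted p = 0.163). Arl5c, of the ARF-like GTPases, had 112 ± 23.4 CPM in egressed and 39.6 ± 15 CPM in tumor-retained libraries (log2 fold change 1.50 ± 0.27, adjusted p = 0.0232), and its adjusted p was 0.0892 without them.

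A further 130 genes passed in the fit without tumor-retained libraries 3 and 4 only, 96 higher and 34 lower in egressed cells. Tumor-retained libraries 3 and 4 stood above 1 and 2 in 85 of the 96 higher genes (88.5%), against 23.5% of all tested genes, and 34 of the 96 (35.4%) had no count in tumor-retained libraries 1 and 2, against 13.7%. The genes were selected by leaving out libraries 3 and 4, so these shares describe the selection. Naip2, of the NAIP inflammasome genes, measured 5.36, 7.05, 29.6 and 70.9 CPM in egressed libraries 1 to 4, against 0, 0, 40.9 and 38.9 CPM in tumor-retained libraries 1 to 4. Its values in tumor-retained libraries 3 and 4 lay within the egressed range. Tfb1m, for a mitochondrial rRNA methyltransferase, measured 13.1, 18.5, 25.3 and 36.1 CPM in egressed libraries 1 to 4, against 0, 0, 0 and 1.48 CPM in tumor-retained libraries 1 to 4 (adjusted p = 0.118, and 0.0041 without the 2 libraries). The 34 lower genes included the costimulatory receptor gene Icos and the death ligand gene Fasl. Icos measured 283, 271, 63.3 and 155 CPM in egressed libraries 1 to 4, against 911, 1020.0, 282 and 751 CPM in tumor-retained libraries 1 to 4 (adjusted p = 0.0659 and 0.0356). Fasl measured 117, 32.8, 65.3 and 115 CPM in egressed libraries 1 to 4, against 473, 336, 152 and 364 CPM in tumor-retained libraries 1 to 4 (adjusted p = 0.0518 and 0.0474). In both genes tumor-retained library 3 held the lowest tumor-retained value.

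**Figure D5:**
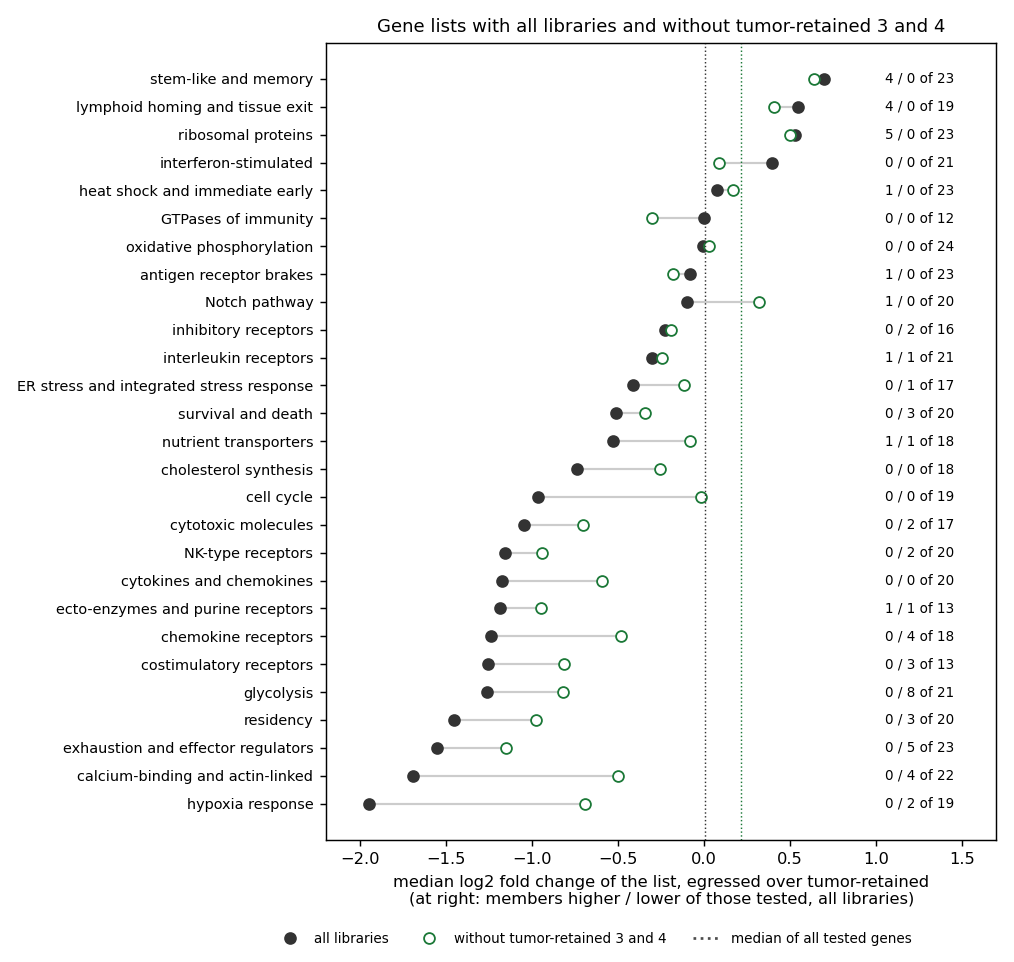
Median log2 fold change (egressed over tumor-retained) of 27 gene lists with every library (filled) and without tumor-retained libraries 3 and 4 (open), with dotted lines at the medians of all tested genes (0.00 and 0.22). At right stand the members higher and lower of those tested. Homing, stem-like and ribosomal protein lists stay above both lines, and the hypoxia list moves from -1.95 to -0.69 when the 2 libraries are left out.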

How the data were processed

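Per the labels' protocols, cells were lysed in a Takara solution and cDNA libraries were built with Takara's SMART-Seq v4 chemistry for very small inputs. The chemistry copies RNA without molecular identifiers, so intervals and floors cover counting error only. Tools named by the submitters' processing notes, without roles, are STAR 2.7.3a, Bowtie2 2.5.1, Cufflinks 2.2.1 and cutadapt 2.5, with mm10 as the build. Which program counted reads, and on which annotation, is not given in the sources used here.

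Raw counts were deposited by the authors for 48397 gene symbols in 12 libraries and were analysed here. The authors also deposited log2 normalized values, used only to check the counts: they equal the log2 of size-scaled counts plus 1 within 5.13e-09. Spreadsheet dates replaced 27 symbols, which are not named. GENCODE M21 held 46368 symbols (95.81%) and gave the positions of whole genes on mm10.

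Counts were filtered with filterByExpr, scaled by TMM and fitted with edgeR 4.0.16 (R 4.3.3) in 1 quasi-likelihood model of egressed, tumor-retained and spleen libraries with no block. Contrasts were egressed minus tumor-retained, with Benjamini-Hochberg adjustment over all tested genes at 0.05. The biological coefficient of variation was 1.21 (common estimate). Levels are TMM-scaled CPM. The ± after a log2 fold change is an approximate SE, the size of the change divided by the square root of the test's F statistic. A gene was held to pass in both fits when it passed with and without tumor-retained libraries 3 and 4 in the same direction. DESeq2 1.42.0 and limma 3.58.1 gave alternatives. Summed marker levels were compared by 2-sided exact permutation. The script was tested on simulated data with large planted changes and a capped spread. That test does not measure how many changes of the sizes seen here it would find.

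The genes named are, among those passing in both fits without overlap and at 10 CPM or more, the 12 highest and 12 lowest fold changes and up to 3 members of each list, then up to 5 genes each way among those passing in 1 fit and a fixed set of 14. A few are not reported, and exceptions are said. The compared groups, the gene lists and this rule were chosen with earlier results of these data known. Deviations of same-numbered libraries correlated at -0.124 to 0.117, and only those of number 2 were each other's best match. The deposited columns of every group carry the same numbers, with the same number skipped, so libraries of a number may share a mouse. The labels do not say that a number is a mouse, so no pairing was used in the main fit. Weak correlation does not show that the libraries come from different mice.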

Additional observations from a re-analysis of the deposited data

Results flagged for a closer look

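In groups of 4 libraries, 15 of 212 had a highest or lowest library set apart from the other 3 by Dixon's criterion (7.08%). The criterion's rate of about 1 in 20 holds for normally distributed values, not for CPM. A group with counts in only 1 library is always flagged, so the 2 rates cannot be compared. Among genes that passed in both fits, Dapl1 stood at 31.7 CPM in tumor-retained library 2. Tumor-retained library 4 had 30.8 CPM of Pydc3, a pyrin domain gene that was lower there than in the other 3, and 257.8 CPM of Tiparp, the highest of its group. Bcl2l11 was lowest in tumor-retained library 3, at 270.2 CPM. Bcl2a1d was highest in egressed library 2, at 30.8 CPM. Stk32c had its only egressed count in library 1, at 0.0391 CPM.

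Among genes that passed in 1 fit only, Esm1 stood at 116.8 CPM in tumor-retained library 3. Hmox1 had its only egressed counts in library 2, at 0.114 CPM. Igfbp3 stood apart in both groups, at 0.531 CPM in egressed library 2 and 1059 CPM in tumor-retained library 3. Tfb1m had its only tumor-retained counts in library 4, at 1.48 CPM.

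Among marker sums, CD8 T cell identity genes reached 8267 CPM in egressed library 3 and dendritic cell markers 95.2 CPM in egressed library 2. Endothelial markers reached 309.4 CPM in tumor-retained library 3, and melanoma markers 21.1 CPM in tumor-retained library 2.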

How the results depend on the processing

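The number of changed genes (235, of which 115 passed in both fits) depended on the settings more than the direction of single genes did. It was 439 (255 in both fits) when only genes at 10 CPM or more were tested, 1928 (1060) with DESeq2 and 185 (23) with limma-voom. The 115 were 54 higher and 61 lower, and the 23 were 0 higher and 23 lower. With the 8 egressed and tumor-retained libraries alone it was 13 (2), and 588 (227) with DESeq2 or 316 (11) with limma-voom on those 8. It was 5 with the 8 libraries less tumor-retained 3 and 4, and 442 without the 3 libraries of fewest detected genes. Scaled by library size alone it was 260, with 57.7% higher in egressed cells, against 46.4% with TMM scaling. Leaving out 1 library gave 95 (egressed 1) to 487 (tumor-retained 1) changed genes and 38 (spleen 1) to 132 (tumor-retained 2) in both fits. The count was also under 150 without egressed 2 (141), 3 (144) or 4 (106) or tumor-retained 4 (98), and 302 without tumor-retained 2. A replicate block gave 78 genes (16 in both fits), and 22 of the 79 named genes that passed lost their call with it. Same-numbered libraries correlated at -0.124 to 0.117 in their deviations, and whether they share a mouse is not known. The fit in both settings was not run without tumor-retained 3 or 4, which it already leaves out.

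The median log2 fold change of all genes was 0.00366 in the main fit, 0.0875 with library size scaling, 0.114 with upper quartile factors and 0.172 with limma-voom. With 1 library left out it ranged from -0.125 (egressed 2) to 0.164 (tumor-retained 2). Of 79 named genes that passed, each kept its sign under the alternatives run. Of the named genes that did not pass, 2 changed sign. Cxcr4 was at -0.10 and turned to 0.001788 with library size scaling, 0.03603 with upper quartile factors, 0.1603 without tumor-retained 3 and 4, 0.1725 with that and 8 libraries, 0.1302 without the 3 libraries of fewest genes and 0.02291 with limma-voom on 8, and ranged over -0.3232 to 0.1072 with 1 library left out. Naip2 was at 0.50 and turned to -2.196 without those 3 libraries and -0.1048 with limma-voom on 8, and ranged over -0.5021 to 1.116 with 1 left out. The causes were not tested.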

Other observations

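In several gene lists edgeR called no member. Of 24 tested oxidative phosphorylation genes 0 passed, with 0 higher and 1 lower in egressed cells at an unadjusted p under 0.05 and 0 by DESeq2 and limma-voom, and the median log2 fold change was -0.01, turning to 0.12 with upper quartile factors. Of 19 tested cell cycle genes 0 passed, with 1 higher and 2 lower unadjusted and 1 higher by DESeq2. Their median was -0.97 with every library and -0.02 without tumor-retained libraries 3 and 4. Of 21 tested interferon-stimulated genes 0 passed, with 4 higher and 0 lower unadjusted, 3 higher by DESeq2 and 1 higher by limma-voom, and a median of 0.39. Of 18 tested cholesterol synthesis genes 0 passed, with 0 higher and 3 lower unadjusted and 3 lower by DESeq2 (median -0.74, and -0.25 without the 2 libraries). Of 20 tested cytokines and chemokines 0 passed, with 1 higher and 6 lower unadjusted and 3 lower by DESeq2 (median -1.17).

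Among lists with few calls, Xbp1, a factor of the endoplasmic reticulum stress response, fell as 1 of 17 tested, and did not pass without tumor-retained libraries 3 and 4. Slc16a5 rose and the glucose transporter gene Slc2a1 fell among 18 tested nutrient transporters. Il6ra rose and Ifngr1, for a subunit of the interferon-γ receptor, fell among 21 tested interleukin and related receptors. The Ifngr1 call stood in 2 of 12 single omissions (adjusted p up to 0.0717) and ended with upper quartile factors (0.0773) and limma-voom (0.178). Art2b rose and Entpd1 fell among 13 ecto-enzymes and purine receptors. Slc2a1, Il6ra and Entpd1 did not pass without tumor-retained libraries 3 and 4. Gimap and other GTPases of immunity had 0 of 12 called, with 0 higher and 2 lower unadjusted and 2 lower by DESeq2.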
